A study of Rattus norvegicus with 6 samples.

Results

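The genes described here encode cytokines, chemokines, their receptors and immune surface proteins, read through the DNA methylation of the CpG sites assigned to them. They were taken by name: symbols that start with Il, Ccl, Cxcl, Ccr, Cxcr, Tlr or Cd followed by a digit, or with Tnfrsf, Tnfsf or Csf. Of the 32674 annotated nuclear CpG sites, 394 were assigned to such a gene, and 116 of the 8016 genes listed were such genes. A site belongs to the gene with the nearest annotated transcript start, which for these sites lay a median of 33.9 kb away (0.033 to 2193 kb), so assignment is by distance and not by a shown regulatory link.

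The samples were dorsal root ganglia, where the cell bodies of sensory neurons sit among satellite glia, Schwann cells and resident macrophages. SNL libraries (n = 3) came 3 weeks after spinal nerve ligation, a model of neuropathic pain in which the left L5 and L6 nerves are tied. Sham libraries (n = 3) came 3 weeks after surgery without a ligature on the other side, so libraries of both groups may share a rat. All rats were adult male Sprague-Dawley animals, 8 to 9 weeks old at about 220 g, and the labels do not say whether ganglia were pooled, so p-values measure the spread between libraries, which may be technical. Methylation was read by reduced representation bisulfite sequencing (RRBS), which samples CpG-rich MspI fragments, and no RNA was measured, so the labelled tissue could not be checked against marker expression.

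Cytokines are secreted signals and chemokines are those that steer cell migration. Interleukins, TNF ligands and colony-stimulating factors act through surface receptors, and Toll-like receptors recognise microbial and damage-derived molecules. After nerve injury, cytokines from glia and macrophages are known to sensitise sensory neurons. CpG methylation near a start often goes with a silent promoter, while most distal CpGs are methylated.

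Coverage summed over all listed CpGs was 29420922 to 34293779 in the SNL libraries and 27247702 to 32243538 in the Sham libraries. In these sums a read counts at each CpG it covers. The 394 sites had a median of 203 reads per library (100 to 2811). The mean level over all annotated sites was 67.3% ± 0.79 in SNL and 68.2% ± 0.43 in Sham libraries (SD, n = 3), and 61.3% of all sites had a difference below 0. Each site was tested by logistic regression of its reads on group with an overdispersion moderated across all sites, and p-values were adjusted over the 32674 sites by Benjamini-Hochberg. A site is called where this adjusted p is under 0.05.

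Promoters of 8 of the 116 genes held a measured CpG, 10 sites in all, which is 2.54% of the 394 sites against 7.31% of all annotated sites. RefSeq promoter windows (build GRCr8) matched 89 of the 116 genes and 5 of these 8. The 250 bases before the start are shown for 3 promoters whose measured CpGs had different methylation levels. They run from 5′ to 3′ on the gene's strand, with CpGs in capitals. The promoters are those of Tnfrsf1a (chr4:159836869-159837118, plus strand), Cxcr2 (chr9:83178395-83178644, plus strand) and Il18r1 (chr9:50223241-50223490, plus strand).
Tnfrsf1a: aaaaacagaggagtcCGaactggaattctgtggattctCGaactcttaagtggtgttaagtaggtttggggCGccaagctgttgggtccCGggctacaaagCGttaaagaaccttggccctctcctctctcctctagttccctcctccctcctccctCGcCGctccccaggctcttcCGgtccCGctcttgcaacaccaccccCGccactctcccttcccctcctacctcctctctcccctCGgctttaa
Cxcr2: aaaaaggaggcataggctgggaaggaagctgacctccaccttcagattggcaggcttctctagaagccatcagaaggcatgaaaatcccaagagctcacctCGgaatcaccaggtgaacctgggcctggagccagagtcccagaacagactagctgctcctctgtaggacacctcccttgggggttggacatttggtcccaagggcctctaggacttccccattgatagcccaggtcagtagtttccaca
Il18r1: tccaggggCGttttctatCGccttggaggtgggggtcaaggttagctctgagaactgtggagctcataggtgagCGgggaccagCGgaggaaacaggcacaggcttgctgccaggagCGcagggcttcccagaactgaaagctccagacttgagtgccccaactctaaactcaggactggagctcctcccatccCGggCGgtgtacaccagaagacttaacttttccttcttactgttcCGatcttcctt
The Tnfrsf1a window held 11 CpGs, the Il18r1 window 8 and the Cxcr2 window 1, beside a median of 5 over 33469 rat windows. The MspI site CCGG, which reads the same on both strands and sets where RRBS reads begin, occurred 2 times, 1 time and 0 times in them and in 46.2% of all windows. The distances of the measured CpGs given below are from the starts in the files' build, rn4, and put them outside these windows. Where they fall beside the GRCr8 sequences shown was not checked.

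Tnfrsf1a, the receptor through which TNF triggers inflammation, had nearly unmethylated promoter CpGs in every library. At 68 bp after its start (chromosome 4, position 162172629, promoter and exon) the level was 1.11%, 1.33% and 1.09% in SNL 1 to 3 and 0.395%, 0.476% and 1.14% in Sham 1 to 3. At 113 bp it was 2.7% ± 0.503 in SNL and 2.98% ± 1.36 in Sham libraries (SD, n = 3). The ranges overlapped at both positions, with 175 to 255 reads per library.

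Cxcr2, a neutrophil chemokine receptor, stood at 14.4%, 16.8% and 14.8% in SNL 1 to 3 and 12.8%, 19.2% and 14.2% in Sham 1 to 3, at 521 bp before its start (chromosome 9, position 73470422). Cxcr5, which guides B cells into follicles, and Tlr3, a sensor of double-stranded RNA, lay at intermediate levels. The Cxcr5 site, 644 bp upstream, had 46% ± 4.08 in SNL and 44.9% ± 5.41 in Sham libraries, and the Tlr3 site, 833 bp downstream and intronic, had 49.8% ± 4.1 in SNL and 47.5% ± 1.95 in Sham libraries (SD, n = 3). In none of these 3 did the groups separate (adjusted p = 0.972 for Cxcr2, 0.995 for Cxcr5 and 0.879 for Tlr3).

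The remaining promoter sites were mostly methylated. Cd69, an early activation marker of lymphocytes, had 73.6%, 75.8% and 74.5% in SNL 1 to 3 against 81.9%, 83.4% and 81.9% in Sham 1 to 3 at 33 bp after its start (chromosome 4, position 166535569, exon). Cd7, a surface protein of T cells, had 70%, 63.7% and 65.8% in SNL 1 to 3 against 74.2%, 72.7% and 75.8% in Sham 1 to 3 at 661 bp (chromosome 10, position 110252395, intron). In both the SNL libraries lay below every Sham library, yet neither passed the test (difference -7.78 points, adjusted p = 0.234 for Cd69; -7.74 points, adjusted p = 0.0986 for Cd7). Il18r1, a subunit of the IL-18 receptor, had 69.7% ± 3.93 in SNL and 75.1% ± 1.6 in Sham libraries at 150 bp (SD, n = 3; adjusted p = 0.225), with overlapping groups. The 2 sites of the leukocyte tetraspanin Cd37, at 141 and 153 bp, had 75.7% ± 2.93 and 72.2% ± 3 in SNL libraries and 78.9% ± 4.83 and 76.4% ± 2.92 in Sham libraries. No promoter site of the set was called, beside 0.838% of all promoter sites.

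**Figure D1:**
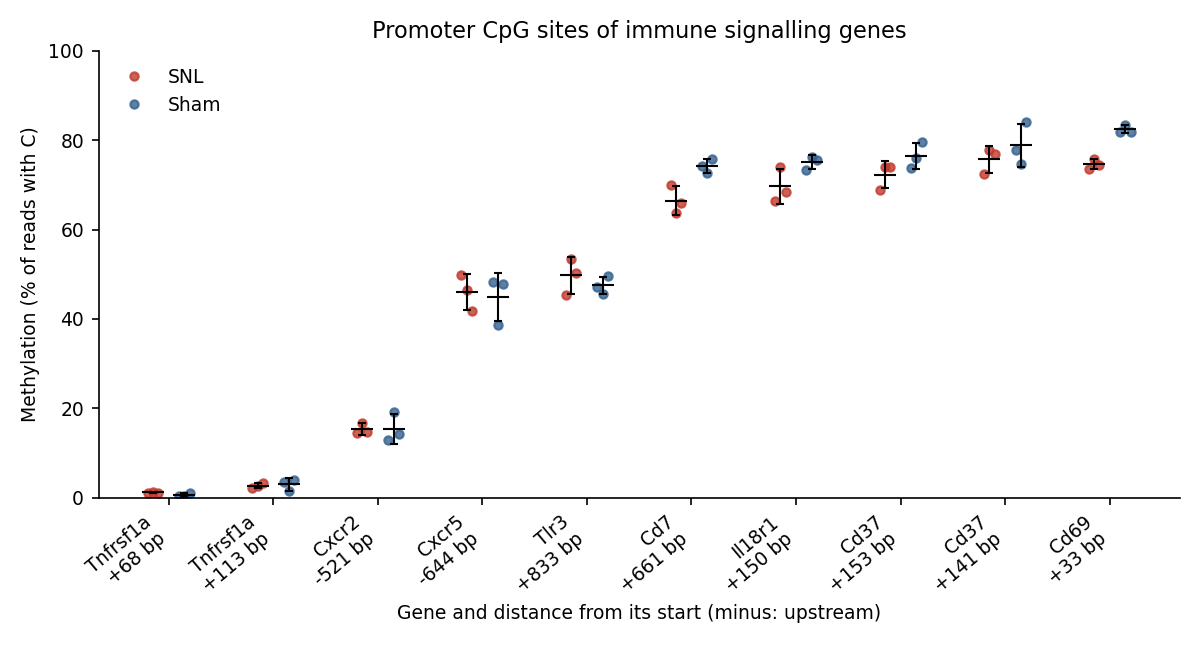
Methylation (percent of reads with C) at the 10 promoter CpG sites, ordered by Sham level, with 1 point per library, SNL left of Sham, and bars for the mean ± SD (n = 3). Tnfrsf1a lies near 0% in both groups, and Cd7 and Cd69 have all SNL libraries below all Sham libraries.

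Away from promoters, 8 of the 394 sites (2.03%) differed at an adjusted p under 0.05, beside 1.42% of all annotated sites. All 8 were lower after SNL, where 1.24% of all sites were called lower and 0.181% higher. They belong to 6 genes: Tnfrsf19, Cxcr4, Il6st, Il36a, Cd44 and Cd9. The calls depend on the moderated spread, since without moderation an F test called 0 of the 394 sites, with 31 at an unadjusted p under 0.05. A limma fit to logit values also gave 0 calls, with 43 at that level. For these fits the share of all sites at that level is not given here. In whole ganglia, a changed level per cell and a changed share of cell types cannot be told apart.

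Tnfrsf19, a TNF receptor family member of the nervous system that can join the receptor complex of myelin-derived growth inhibitors, had the lowest p of the set. Its site 28.2 kb upstream of the start (chromosome 15, position 40146129, outside any annotated gene part) had 46.2%, 48.5% and 45.6% in SNL 1 to 3 against 61.7%, 64.3% and 63% in Sham 1 to 3. All SNL libraries lay below all Sham libraries, and the difference was -16.2 points ± 1.18 (SE, adjusted p = 3.75e-06, 915 to 1537 reads). Other CpGs nearby were nearly fully methylated in both groups. That at 150 bp had 93.2% ± 1.79 in SNL and 96.8% ± 3.23 in Sham libraries, with overlap. That at 310 bp had 95% ± 0.316 in SNL and 97.9% ± 1.86 in Sham libraries (SD, n = 3, at least 20 reads). At 310 bp every SNL library lay below every Sham library. Neither was called by the moderated logistic test over the sites with 20 reads or more (adjusted p = 0.841 and 0.78).

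Cxcr4, the receptor of the chemokine Cxcl12, had the lowest-level called site, 413 kb upstream of its start (chromosome 13, position 41725639, intergenic). The level was 27.8%, 22% and 22% in SNL 1 to 3 against 41.4%, 41.6% and 44% in Sham 1 to 3, so the groups did not overlap. With 384 to 575 reads per library, the difference was -18.4 points ± 2.09 (SE, adjusted p = 0.000147). The other 9 sites assigned to Cxcr4 were not called (adjusted p 0.257 to 0.991). The pair nearest the start, 7.83 and 7.88 kb downstream, averaged 85.7% and 78.9% in SNL and 83.7% and 76.8% in Sham libraries.

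Il6st encodes gp130, the signal-transducing subunit that receptors of the IL-6 family share. Its called site, 35.8 kb upstream (chromosome 2, position 43772921, intergenic), had 83%, 79.6% and 75.9% in SNL 1 to 3 against 93.4%, 94.4% and 92.4% in Sham 1 to 3. The difference was -13.9 points ± 2.14 (SE, adjusted p = 0.000361, 211 to 463 reads). A second CpG 245 bp away, with at least 665 reads, had 94.8%, 95.6% and 95.7% in SNL 1 to 3 and 95.1%, 94.7% and 95.3% in Sham 1 to 3 (adjusted p = 0.906). The difference was thus seen at 1 of these neighbouring positions. These 3 sites, of Tnfrsf19, Cxcr4 and Il6st, were called in each of the 6 fits that left out a library.

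Il36a, an IL-1 family cytokine of epithelia, had the smallest called difference, in the intron 3.15 kb after its start (chromosome 3, position 2485623). It had 79.9%, 77.4% and 78.7% in SNL 1 to 3 against 81.2%, 82.4% and 84.7% in Sham 1 to 3, a difference of -4.07 points ± 1.23 (SE, adjusted p = 0.029). Its 2080 to 2811 reads were the deepest of the set, and the groups lay close together without overlap. The call was lost without SNL 2, SNL 3, Sham 2 or Sham 3 (adjusted p = 0.118, 0.0615, 0.077 and 0.205) and in a fit with an offset per library (adjusted p = 0.0868), which called 1.26% of all sites and 7 of these 8.

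Cd44, the hyaluronan receptor of migrating and activated cells, had the largest difference of the set, in an intron 17.4 kb after its start (chromosome 3, position 88092937). The level was 60.1%, 59.2% and 57.8% in SNL 1 to 3 against 73.9%, 80.7% and 82% in Sham 1 to 3, without overlap. With 122 to 179 reads per library, the difference was -19.8 points ± 2.6 (SE, adjusted p = 0.00729). The CpG 14 bp away had 75.5%, 69.6% and 72.8% in SNL 1 to 3 against 86%, 77.9% and 90.2% in Sham 1 to 3 and was not called (adjusted p = 0.107). Both CpGs thus had every SNL library below every Sham library, and at this spacing they share reads. Without Sham 3 the first CpG lost its call (adjusted p = 0.0628).

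**Figure D2:**
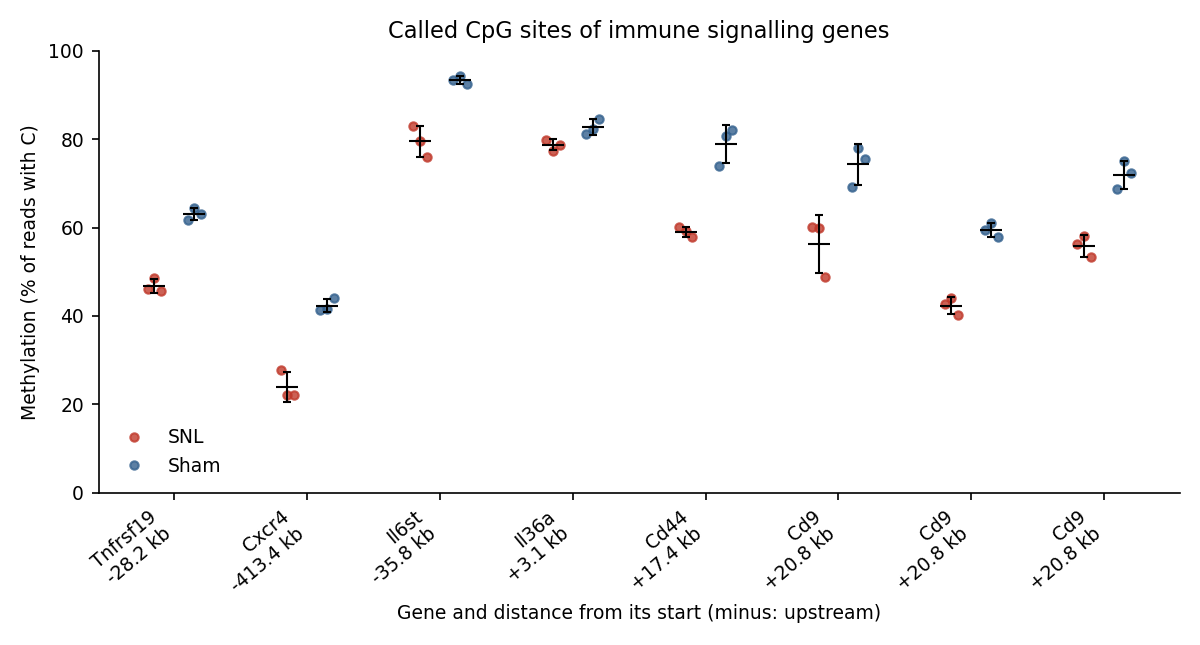
Methylation (percent of reads with C) at the 8 called CpG sites by gene and distance from the start, with 1 point per library, SNL left of Sham, and bars for the mean ± SD (n = 3). At each site the 3 SNL points lie below the 3 Sham points, by the narrowest margin at Il36a.

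Cd9, a tetraspanin abundant on Schwann cells, held 3 of the 8 called sites and, with 14 sites, was among the most densely sampled genes of the set. The called sites sit in a CpG island in an intron, 20.8 kb after the start on chromosome 4. At position 162292120 the level was 42.6%, 44% and 40.3% in SNL 1 to 3 against 59.3%, 61% and 57.8% in Sham 1 to 3, a difference of -17.1 points ± 1.43 (SE, adjusted p = 0.0137). Position 162292109 had 56.3% ± 6.56 in SNL and 74.3% ± 4.54 in Sham libraries, and position 162292123 had 55.9% ± 2.47 in SNL and 72% ± 3.17 in Sham libraries (SD, n = 3; adjusted p = 0.0247 and 0.0212). The fourth island CpG, 162292139, had 51.7% ± 1.63 in SNL and 60.5% ± 2 in Sham libraries and was not called (adjusted p = 0.232). These 4 positions span 30 bp, so the same reads of 50 bases can cover them, and they are closer to 1 measurement than to 4.

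Further Cd9 sites put this stretch in context. In the island shore, 584 bp or more from the island CpGs, the 4 CpGs averaged 50.3%, 33%, 22.9% and 25% in SNL and 59.5%, 39.2%, 28.6% and 30.8% in Sham libraries, with adjusted p from 0.107 to 0.372. The 2 sites 75.7 kb upstream were higher in the mean after SNL, at 27.2% and 44.4% against 21.6% and 36.8% in Sham libraries, and did not pass (adjusted p = 0.553 and 0.359). The 3 sites 68.6 to 68.7 kb downstream averaged 93.5%, 93.3% and 54.4% in SNL and 93.6%, 94.1% and 52.9% in Sham libraries, with overlap at each. Over the whole table only 8 of 1473 CpG island sites were called (0.543%), and 3 of those 8 are these Cd9 CpGs. All 3 lost their call without SNL 3, Sham 2 or Sham 3.

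**Figure D3:**
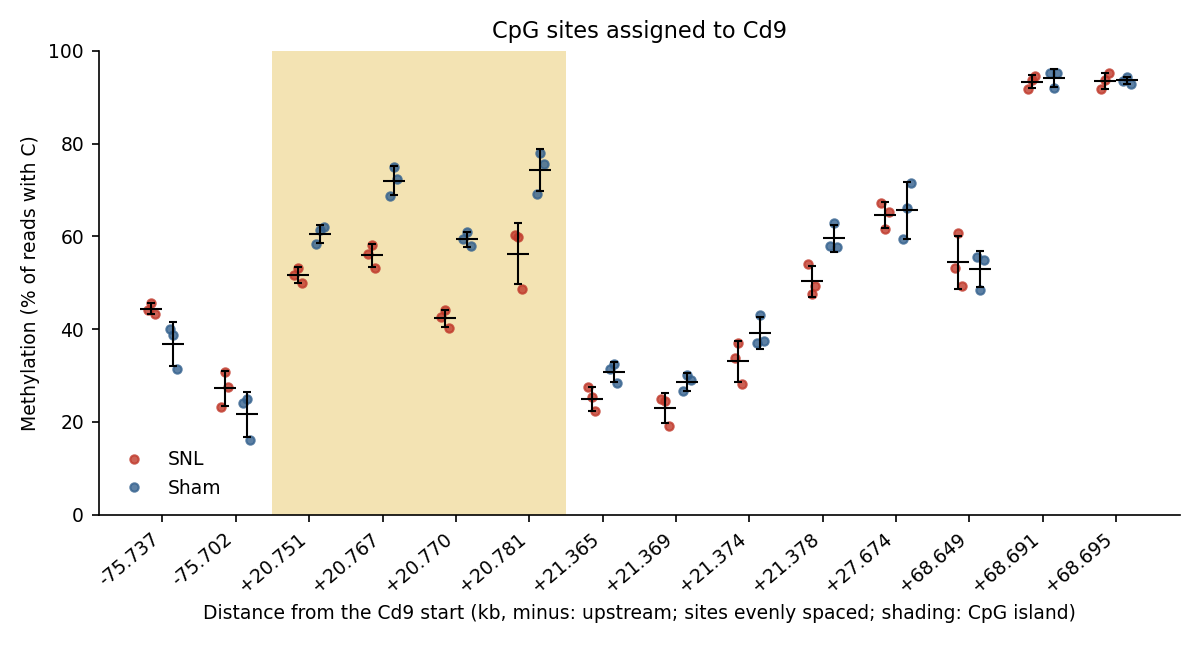
Methylation (percent of reads with C) at the 14 CpG sites assigned to Cd9, in order of distance from its start and evenly spaced, with 1 point per library, SNL left of Sham, and bars for the mean ± SD (n = 3). The 4 shaded island sites and the 4 shore sites have SNL means below Sham means, and the 2 upstream sites have SNL means above.

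Over all 394 sites, the level was 72.7% ± 0.88 in SNL and 74% ± 0.33 in Sham libraries (mean of sites, SD over n = 3). The library means were 73.7%, 72.4% and 72.1% in SNL 1 to 3 and 73.6%, 74% and 74.3% in Sham 1 to 3, so SNL 1 lay within the Sham range. The median difference was -0.76 points, beside -0.55 points over all annotated sites. It was below 0 at 251 sites (63.7%, beside 61.3% of all sites). At 65 sites (16.5%) the groups did not overlap, beside 17.8% of all sites, and 52 of these (13.2%) were lower after SNL, beside 13.2%, and 13 (3.3%) were higher, beside 4.64%. At an unadjusted p under 0.05 there were 57 sites (14.5%), 49 of them lower, beside 13.1% of all sites. These shares lie near those of the table as a whole.

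**Figure D4:**
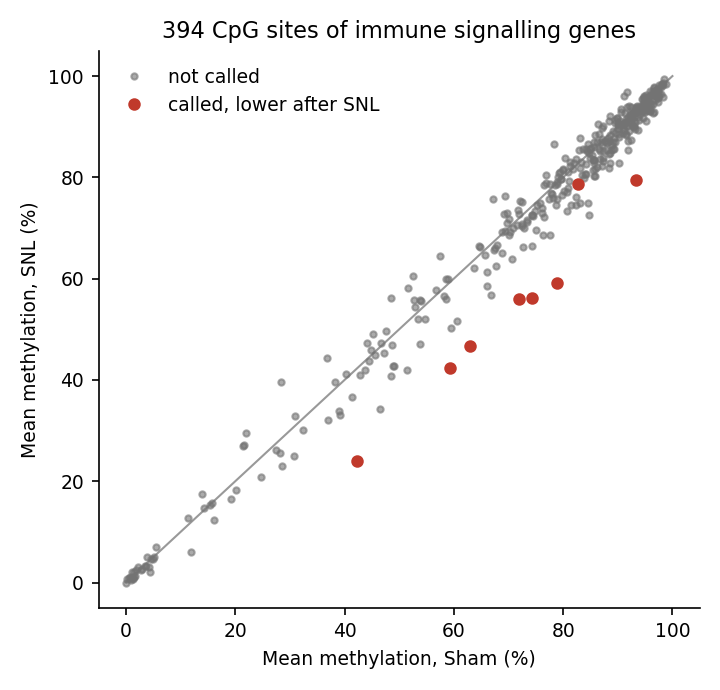
Mean methylation per CpG site in SNL (vertical axis, percent) against Sham libraries (horizontal axis, percent) for the 394 sites, with the line of equal levels and the 8 called sites in red. Most sites lie near the line, and all called sites lie below it.

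The sites differed widely in level. Under 10% in Sham libraries stood 25 sites (6.35%, beside 12.4% of all sites), among them 4 CpG island sites assigned to Il17ra, the IL-17 receptor chain, at 0.83% to 3.46%, and 4 shore sites assigned to Tlr6, a partner of Tlr2, at 0.59% to 1.91%. In SNL libraries the same sites had 0.49% to 3.28% for Il17ra and 0.91% to 2.41% for Tlr6. A CpG assigned to Cd40, a receptor of B cells and macrophages, had no methylated read in any library. Tnfrsf21, a death-domain receptor, spanned the range within 1 gene: its 14 sites averaged from 0.4% to 97.1% over the 6 libraries. Outside annotated promoters, exons and introns lay 269 sites (68.3%, beside 64.2% of all sites).

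Of the interleukins, 19 genes with 52 sites were measured, and none passed when reads were summed over the sites of each gene. Over the whole set 1 of 116 genes was called in these sums (0.862%), beside 0.536% of all genes, it was lower after SNL, beside 0.511%, and 21 (18.1%) had an unadjusted p under 0.05, beside 13.7%. The interleukin genes averaged 84.9% ± 0.601 in SNL and 86.2% ± 0.265 in Sham libraries (SD, n = 3). Of the 19 differences 15 were below 0, beside 66.9% of all genes. Il21, a T cell cytokine, had 77.3% ± 2.56 in SNL and 80.1% ± 0.993 in Sham libraries, and Il5, the eosinophil growth factor, had 92% ± 1.49 in SNL and 90.6% ± 0.778 in Sham libraries (adjusted p = 0.521 and 0.585).

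The 20 interleukin receptor genes averaged 76.3% ± 0.644 in SNL and 77.2% ± 0.359 in Sham libraries (SD, n = 3). Their differences were below 0 in 14 and above in 6, beside 66.9% of all genes below 0. Summed over its 5 sites, Il6st had 94%, 92.6% and 93.5% in SNL 1 to 3 against 94.8%, 94.8% and 94.8% in Sham 1 to 3 (adjusted p = 0.229), without overlap, and only 2 of the 5 sites had a lower mean. Il12rb2, a chain of the IL-12 receptor, had 90.5% ± 0.986 in SNL and 92.5% ± 0.846 in Sham libraries, and Il21r had 91.3% ± 1.78 in SNL and 94.5% ± 0.753 in Sham libraries (adjusted p = 0.256 and 0.354). In the opposite direction, Il6r, the ligand-binding IL-6 receptor chain, had 94.9%, 90.9% and 95.4% in SNL 1 to 3 against 87.3%, 89.3% and 90.7% in Sham 1 to 3 over 2 sites (adjusted p = 0.363), without overlap. Il17ra had 38.7% ± 0.26 in SNL and 36.8% ± 0.342 in Sham libraries (adjusted p = 0.381), also without overlap, although 5 of its 6 sites had a lower mean after SNL. Its sites averaged from 0.658% to 84.8%, and a gene sum weights each site by its reads. The sum can therefore move with the split of reads among sites, which was not tested.

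The X-linked Il1rapl1 and Il1rapl2 resemble IL-1 receptors but are known as organisers of synapses. Il1rapl1 had 87%, 86.4% and 84.8% in SNL 1 to 3 against 86.7%, 88.6% and 89.4% in Sham 1 to 3, over 8 sites 387 to 2193 kb from its start. The single Il1rapl2 site had 89.2% ± 2.49 in SNL and 92.1% ± 2.15 in Sham libraries. Il1rap, the true accessory chain of the IL-1 receptor, had 91% ± 2.15 in SNL and 91.1% ± 1.52 in Sham libraries over 2 sites. The groups overlapped in all 3 (adjusted p = 0.401, 0.623 and 0.972).

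Chemokine genes (13 genes, 32 sites) averaged 71.9% ± 1.31 in SNL and 73.3% ± 0.655 in Sham libraries (SD, n = 3). Cxcl12, the ligand of Cxcr4, had 94.4% ± 0.913 in SNL and 95.8% ± 0.458 in Sham libraries over 4 sites 46.4 to 142 kb away (adjusted p = 0.355). Ccl25, a T cell chemokine, had 86.1% ± 0.513 in SNL and 88.4% ± 1.76 in Sham libraries (adjusted p = 0.387). Ccl21, which draws T cells and dendritic cells into lymph nodes, had 68.3% ± 1.84 in SNL and 71.3% ± 1.72 in Sham libraries (adjusted p = 0.438). Among the 6 chemokine receptor genes, Cxcr4 summed over its 10 sites had 70.7%, 64.6% and 66.5% in SNL 1 to 3 and 75.3%, 69.9% and 70.6% in Sham 1 to 3, and the groups overlapped (adjusted p = 0.322). Ccr6, the receptor of Ccl20, had 85.6% ± 4.46 in SNL and 89.3% ± 3.26 in Sham libraries (adjusted p = 0.697). The X-linked Cxcr3, a chemokine receptor of T cells, had 38.8% ± 2.34 in SNL and 40.6% ± 2.83 in Sham libraries (adjusted p = 0.744).

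Tnfrsf19 was the 1 gene called in the sums. Over its 4 sites it had 49%, 47.5% and 46.8% in SNL 1 to 3 against 57.6%, 58.2% and 57.8% in Sham 1 to 3, a difference of -10.1 points ± 0.662 (SE, adjusted p = 0.0118). Beside the called site, the other 3 sites, with adjusted p from 0.537 to 0.942, had a lower mean at 1 position and a higher mean at 2. The call was lost without SNL 2, SNL 3, Sham 2 or Sham 3 (adjusted p = 0.0818, 0.0716, 0.0576 and 0.115). Both exon sites, 34 kb downstream, had higher means after SNL, 58.1% and 56.2% against 51.6% and 48.5% in Sham libraries. At the second of these, position 40084052, the level was 67.8%, 47% and 54% in SNL 1 to 3 and 51.3%, 47.5% and 46.6% in Sham 1 to 3. The position 1 bp before it, 40084051, is the other strand of the same CpG and had 47 to 81 reads. Its level was 59.6%, 61.2% and 59.3% in SNL 1 to 3 against 40.3%, 40.4% and 41.8% in Sham 1 to 3 (adjusted p = 0.0832 over the sites with 20 reads or more, 0.0398 with an offset per library, and 0.172 to 0.302 without 1 library). The groups thus overlapped at 40084052 but not at 40084051, although both read the same CpG.

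In the other TNF receptor genes (8 in all), Tnfrsf25 had 12.2% ± 1.05 in SNL and 16% ± 2.55 in Sham libraries, and Tnfrsf21 had 75.1% ± 3.17 in SNL and 72.6% ± 2.68 in Sham libraries (SD, n = 3; adjusted p = 0.419 and 0.571). Of the 3 TNF ligand genes, Tnfsf11, which encodes the osteoclast factor RANKL, had 82.1%, 80.2% and 78.1% in SNL 1 to 3 against 82.7%, 82.7% and 84.4% in Sham 1 to 3 (adjusted p = 0.288), without overlap. Tnfsf4, the OX40 ligand, had 86.6% ± 2.43 in SNL and 88.7% ± 1.62 in Sham libraries (adjusted p = 0.561). Tnfsf12, the cytokine TWEAK, had 47.8% ± 6.57 in SNL and 45.9% ± 2.32 in Sham libraries (adjusted p = 0.865).

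None of the 12 sites of colony-stimulating factors and their receptors or the 10 of Toll-like receptors was called. Over all sites 1.42% were called, so these counts are too small to set either class apart. Csf1r, the receptor that maintains macrophages and microglia, had 90.6% ± 2.93 in SNL and 90.3% ± 0.911 in Sham libraries over 3 intron sites (adjusted p = 0.991). Csf2, the cytokine GM-CSF, had 84.2% ± 2.91 in SNL and 84.2% ± 4.41 in Sham libraries (adjusted p = 0.999). Csf3r, the G-CSF receptor, had 81% ± 2.6 in SNL and 83.8% ± 0.503 in Sham libraries, with all 6 sites lower in the mean (adjusted p = 0.426). The 5 Toll-like receptor genes averaged 55.1% ± 0.724 in SNL and 55.1% ± 1.41 in Sham libraries, and 0 of their 10 sites had an unadjusted p under 0.05, beside 13.1% of all sites, a count too small to set the class apart. Tlr10 had 85.6% ± 0.788 in SNL and 86.7% ± 1.07 in Sham libraries, and Tlr6 had 1.57% ± 0.182 in SNL and 1.29% ± 0.518 in Sham libraries (adjusted p = 0.82 and 0.882).

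The class named CD antigens took every symbol of Cd and a digit, so not each member need be a CD antigen (such as Cd2ap). It mixes leukocyte, adhesion and tetraspanin genes and held 39 genes and 142 sites. Their gene sums averaged 74.8% ± 0.666 in SNL and 76.9% ± 0.716 in Sham libraries (SD, n = 3). Of the 39 differences 28 were below 0, beside 66.9% of all genes. In 15 of the 39 genes every SNL library lay below every Sham library, a higher share than the 1265 of 8016 over all genes (15.8%). Over the whole set it was 23 of 116 (19.8%), and whether the class differs was not tested. Cd44 had the lowest p, at 75.8%, 72.4% and 75.4% in SNL 1 to 3 against 83.1%, 83.7% and 89.2% in Sham 1 to 3 (difference -10.8 points ± 2.21 SE, adjusted p = 0.1). Cd9 had 48.3% ± 2.54 in SNL and 53.4% ± 0.737 in Sham libraries, and Cd36, a scavenger receptor and fatty acid carrier, had 84.6% ± 1.1 in SNL and 89.5% ± 0.88 in Sham libraries (adjusted p = 0.153 and 0.166). Cd83, a dendritic cell marker with 13 sites, had 66.5% ± 1.19 in SNL and 66% ± 1.15 in Sham libraries (adjusted p = 0.865).

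**Figure D5:**
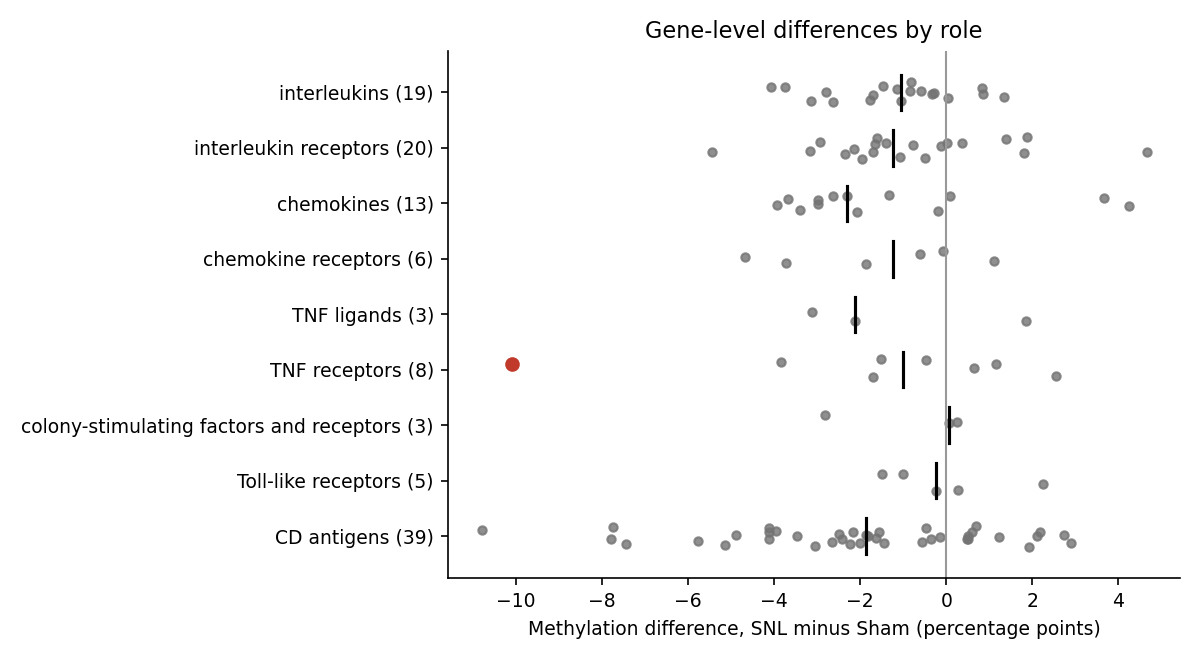
Difference in methylation summed over the sites of each gene (SNL minus Sham, percentage points, horizontal axis) for the 116 genes by role, with the number of genes in brackets, a black bar for the median of each role and the called gene Tnfrsf19 in red. Medians lie between -2.31 points in chemokines and 0.06 points in colony-stimulating factors and their receptors.

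Within 1000 bp of the 394 sites lay 304 further positions with 20 reads or more in every library that the annotated table does not list. Some, as for Ccr4, Cd2 and Tnfrsf19, lie 1 bp from a listed site and are the other strand of the same CpG. By the moderated logistic test over all 210270 nuclear sites with 20 reads or more, where 0.561% were called, 0 of the 304 passed, and 20 had an unadjusted p under 0.05. The unmoderated F test and limma on logit values also called 0, with 4 and 31 at an unadjusted p under 0.05. The shares of all 210270 sites at that unadjusted level are not given here, so these counts cannot be set against them.

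Other genes of cytokine signalling, such as JAK, STAT, SOCS, IRAK and interferon regulatory factors, were listed separately, and 41 of 94 had an annotated site. None of the 41 was called in the gene sums by the moderated test, the F test or limma, with 6, 4 and 4 at an unadjusted p under 0.05. The 6 of the moderated test, 4 lower and 2 higher, are 14.6% of the 41, beside 13.7% of all genes. For the F test and limma the share of all genes is not given here. Their 191 sites held 2 called sites (1.05%), both lower, beside 1.42% of all sites called and 1.24% called lower. That of Xcl1, a chemokine of activated T and NK cells, had 66%, 58.9% and 53.5% in SNL 1 to 3 against 73.9%, 81% and 72.7% in Sham 1 to 3 at 8.39 kb after the start (adjusted p = 0.0232). That of Map3k7, the kinase TAK1 downstream of IL-1 and TNF receptors, had 59.4%, 60% and 64.3% in SNL 1 to 3 against 77.8%, 74.1% and 80.2% in Sham 1 to 3, at 317 kb upstream (adjusted p = 0.026). Without 1 library their calls held in 1 and 2 of 6 fits. Lifr, the receptor of leukemia inhibitory factor, a cytokine of injured nerve, had 58.4%, 56.1% and 53.7% in SNL 1 to 3 against 47.6%, 52.3% and 44.7% in Sham 1 to 3 over 8 sites (adjusted p = 0.156).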

How the data were processed

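Per the file headers, each deposited library lists CpGs with their coverage (a read count) and percent C. The authors' deposited series table gives percent methylation, p-value and q-value, and annotation per site. Per the submitters' processing notes, the tools were Bismark 0.18.1, Bowtie2 and methylKit 1.3.3 and the build was rn4, although the labels' protocol names a human assembly. How methylKit was set is not stated in these sources.

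Methylated counts were recovered as coverage times percent. Symbols came by accession from RefSeq (GRCr8), for 7627 of 8123 transcripts. Sites with 100 reads or more in all 6 libraries were tested by logistic regression with Pearson overdispersion over 4 residual degrees of freedom, moderated with limma's squeezeVar (floor 1), a two-sided F test and Benjamini-Hochberg adjustment. Sites at 0% or 100% in every library stayed out of the moderation. Gene sums count a read again where sites share it. They weight each site by its reads, so they can also move with how reads split among the sites of a gene. An exact permutation over 3 against 3 cannot go below 0.1. Read depth covers counting error only.

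Members, lists and tests were chosen with earlier results of these data known. Named genes are those with a called site, the 3 lowest p per role, promoter or island sites, the 3 with most sites (Cd9, Tnfrsf21 and Cd83, which ties with Cd180 at 13) and the Il1rap family. Il6r, Cd40, Il12a, Cd180, Ccr4, Cxcl16 and, outside the set, Xcl1, Map3k7 and Lifr were chosen after their values were seen. Fits used limma 3.58.1 under R 4.3.3, summaries in Python 3.11.15 (pandas 2.3.3 and numpy 2.4.6).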

Additional observations from a re-analysis of the deposited data

How the results depend on the processing

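All calls rest on moderation of the spread across sites: without it an F test called 0 of the 394 sites and 0 of the 116 genes (31 and 14 with unadjusted p below 0.05). On logit values, limma gave 0 and 0 calls (43 and 20). The shares of all sites and genes at that unadjusted level are not given here for these fits. With library offsets 8 sites (7 of the same sites) and 1 gene were called, and 57.8% of the calls over all sites were lower, beside 87.3% without offsets. Among the neighbours 1 position then passed (0 otherwise), the other strand of a Tnfrsf19 exon CpG already listed. With the replicate number as a block, 4 sites and 0 genes were called. The calls of Tnfrsf19, Cxcr4, Il6st and Cd44 held, and those of Il36a and Cd9 were lost. Over all annotated sites 163 were called with the block, beside 464 without it. The labels do not say that the numbers pair the libraries, and the correlation of deviations was -0.003, 0.148 and -0.067 for numbers 1 to 3. SNL 2 correlated best with its own number, SNL 3 with Sham 1 (0.18) and SNL 1 with Sham 3 (0.03). Deviations from a group mean cancel within the group, so the correlations of each library balance around 0. A best match thus arises without pairing, and these values cannot show it. Whether the libraries share rats, under these or other numbers, was not tested and would bear on every p-value. Without 1 library in turn, 3 to 10 sites and 0 to 1 genes were called. The lower site counts were 5 without SNL 3, 4 without Sham 2 and 3 without Sham 3. Over all annotated sites, 464 were called with all libraries and 129 to 522 without 1 of them. In the fits without SNL 3, Sham 2 and Sham 3 these counts were 305, 251 and 129, so they fell as well. At 200 reads or more, 153 sites remained, of which 3 were called (Tnfrsf19, Cxcr4 and Il6st). Of the 68 genes left, 2 were called (Tnfrsf19 and Cxcr4). The Cxcr4 sum there had the same difference as its called site 413 kb upstream (-18.4 points), so that gene call repeats the site call. The shares of all sites and genes called at this depth are not given here. By the q-value in the authors' deposited table, 22 of the sites passed, all lower and including the 8, beside 4.54% of all sites. The median difference was -1.48 points with 1 value per gene, beside -0.79 points over all genes. For these changes the cause was not tested. Added after the data were seen, a limit of 100 kb to the start left 7 called sites, and a rule that requires a digit after Cd only gave 9.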

Other observations

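At 3 of the 394 sites (0.761%, beside 0.291% of all annotated sites) the libraries of a group spanned over 30 points. A site 45.4 kb downstream of the Il12a start, which encodes an IL-12 subunit, had 24.7%, 0.513% and 55.6% in SNL 1 to 3 and 63.1%, 0% and 1.22% in Sham 1 to 3. A site 212 kb upstream of Cd180, a Toll-like receptor relative of B cells, had 2.54%, 38.9% and 2.56% in SNL 1 to 3 and 2.91%, 35.3% and 4.76% in Sham 1 to 3, so SNL 2 and Sham 2 were high together. A site 17.2 kb upstream of Ccr4, a chemokine receptor of helper T cells, had 67.1%, 97.3% and 97.3% in SNL 1 to 3 and 97.4%, 97% and 68.4% in Sham 1 to 3, so SNL 1 and Sham 3 were low together. Whether libraries share a rat was not tested.

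Among the sites with an unadjusted p under 0.05, 8 had higher means after SNL, 2.03% of the 394 beside 2.88% of all sites. The widest was an exon-flagged CpG 6.45 kb upstream of Cxcl16, a membrane-bound chemokine, with 42.3%, 35% and 41.7% in SNL 1 to 3 against 31.6%, 31.2% and 22.5% in Sham 1 to 3 (11.2 points, adjusted p = 0.21, moderated logistic test with limma), without overlap.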
